A study of Mus musculus with 3 samples.

Results

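Transcription factors that mark the habenula or the thalamus were followed through single nuclei of tissue dissected as the lateral habenula (LHb). The list named 34 factors, and all 34 were found among the 32285 genes of the count table. They were chosen by name for their roles in the diencephalon: 7 habenular factors, 2 effectors of Wnt signalling, 8 thalamic regulators, 4 Zic factors, 2 COUP nuclear receptors, 3 homeodomain factors of the TALE class, and 8 zinc finger or AT-binding regulators. The study compared mothers (sexually experienced females), virgin females and virgin males of the mouse. Nuclei labelled KASH-GFP+ BNST LHb were sorted for green fluorescence, where KASH-GFP is a fluorescent protein held at the nuclear envelope and BNST is the usual abbreviation of the bed nucleus of the stria terminalis, and were sequenced with a droplet 3′ assay. The tissue of 3 mice went into each group's 1 library, so differences between groups have no replicate check. The sources used here do not give the strain, the ages or the way the fluorescent protein reached these neurons.

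The habenula and the thalamus arise side by side from one stretch of the embryonic diencephalon, and a small set of transcription factors tells their neurons apart. Pou4f1, a POU homeodomain factor, marks habenular neurons from birth into adulthood and maintains their gene expression. Tcf7l2 and Lef1 carry Wnt signals into the nucleus, and Tcf7l2 together with Gbx2, Foxp2, Rora and Rorb shapes thalamic neurons and their wiring to the cortex. The LHb borders the midline and paraventricular thalamus, so a dissection can hold neurons of both.

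The libraries held 2126642 to 2790062 UMIs (unique molecular identifiers, each marking a captured transcript), in 603 nuclei, of which the authors annotated 592 as neurons: 201 from mothers, 187 from virgin females and 204 from virgin males. These fell into the authors' 5 clusters, numbered 0 to 4, with 172, 157, 97, 91 and 75 nuclei and median depths of 11465, 9894, 12639, 15007 and 9431 UMIs. Cluster 1 of virgin males also held 5 nuclei annotated as neurons that were rich in choroid markers (39 to 397 UMIs each, against 0 to 3 in the other 152 nuclei of the cluster) and low in pan-neuronal markers (0 to 14 UMIs). They carried no UMI of Pou4f1, Irx1, Irx2, Ebf1 or Ebf3, and the counts of factors that separate clusters were the same without them. Levels below are CPM, the UMIs of a gene per 1000000 UMIs of the nuclei concerned, with exact Poisson 95% intervals that cover counting error only. The sources used here do not state how intronic reads were counted, and levels of different genes, which differ in length, are not compared.

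The label LHb was checked against 6 listed LHb markers (Chrm3, Gap43, Gpr151, Htr2c, Pcdh10 and Pou4f1). The LHb was dissected under a stereomicroscope from coronal slices. The summed level of these markers was 1893 CPM in cluster 1 and 1760 CPM in cluster 4, and 899 to 1173 CPM in clusters 0, 2 and 3. The markers did not order the clusters alike. Chrm3, a muscarinic receptor, gave 992 CPM of the sum in cluster 4, while Htr2c, a serotonin receptor, was lowest there at 245 CPM and Gap43 was highest in cluster 0 at 231 CPM. Pcdh10 alone of the 6 had all library values of clusters 1 and 4 above the others. Gpr151, an orphan receptor that defines LHb neurons, was at 14.8 CPM in cluster 1, 11.6 CPM in cluster 0, 4.40 CPM in cluster 2 and 1.29 CPM in cluster 4, with no UMI in cluster 3. The 8 thalamic relay markers, 4 of which are factors of the present list, summed to 8304, 9528 and 11927 CPM in clusters 0, 2 and 3, and to 2651 and 1822 CPM in clusters 1 and 4. Of the 7 relay markers with at least 50 UMIs, 5 had all library values of clusters 1 and 4 below the others. The 5 midline thalamus markers summed to 824, 602 and 482 CPM in clusters 0, 2 and 3. They summed to 334 CPM in cluster 4 and 58.7 CPM in cluster 1, so clusters 1 and 4 were not alike in them. Of the 4 midline markers with at least 50 UMIs, 1 had all library values of clusters 1 and 4 below the others. Summed over their nuclei, clusters 0, 2 and 3 thus had the higher level of thalamic relay markers, and the clusters are called by number here.

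The factors on which the results turn sit behind promoters of unlike composition. Printed here, 5′ to 3′ on the strand of the gene, are the 250 bases before the RefSeq start (GRCm38.p6) of a factor found only in clusters 1 and 4 (Irx2), the factor that defines the habenula (Pou4f1), a Wnt effector with the reverse pattern (Lef1) and a nuclear receptor highest in cluster 1 (Nr2f2). The Lef1 window ends at the most upstream of its RefSeq starts, ahead of the annotated gene start. They lie at chr14:104468000-104468249 (Pou4f1, minus strand), chr13:72628570-72628819 (Irx2, plus strand), chr3:131110047-131110296 (Lef1, plus strand) and chr7:70366747-70366996 (Nr2f2, minus strand). Capitals mark a TCF and LEF motif.
Pou4f1: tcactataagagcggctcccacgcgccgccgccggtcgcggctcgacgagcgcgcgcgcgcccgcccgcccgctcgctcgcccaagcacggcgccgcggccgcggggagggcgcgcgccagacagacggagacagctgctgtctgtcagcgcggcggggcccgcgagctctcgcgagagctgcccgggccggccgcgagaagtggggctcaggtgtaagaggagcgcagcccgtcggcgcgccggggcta
Irx2: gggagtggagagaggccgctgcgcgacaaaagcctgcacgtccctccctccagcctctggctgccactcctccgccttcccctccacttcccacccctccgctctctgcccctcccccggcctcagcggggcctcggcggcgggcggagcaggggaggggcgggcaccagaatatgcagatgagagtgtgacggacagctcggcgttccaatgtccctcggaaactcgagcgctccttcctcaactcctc
Lef1: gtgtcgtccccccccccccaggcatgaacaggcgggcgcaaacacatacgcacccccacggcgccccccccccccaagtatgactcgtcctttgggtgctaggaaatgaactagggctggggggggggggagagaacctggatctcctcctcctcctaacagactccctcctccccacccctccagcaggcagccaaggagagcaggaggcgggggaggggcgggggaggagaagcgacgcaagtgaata
Nr2f2: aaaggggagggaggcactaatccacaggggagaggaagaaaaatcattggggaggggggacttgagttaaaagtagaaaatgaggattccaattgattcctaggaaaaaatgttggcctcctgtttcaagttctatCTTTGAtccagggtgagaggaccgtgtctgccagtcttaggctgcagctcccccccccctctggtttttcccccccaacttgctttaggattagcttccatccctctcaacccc

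Guanine and cytosine made up 78.0% of the Pou4f1 window, 68.4% of that of Irx2, 66.4% of that of Lef1 and 50% of that of Nr2f2, against a median of 52.4% over all 32851 windows of this length in the table. A TCF and LEF motif, CTTTGA or CTTTGT on either strand, was present in 7 of the 28 factors whose window was searched, and in 27.6% of all windows. The nuclear receptor core AGGTCA was in 1 of the 28 windows and in 14.0% of all windows. The homeodomain core TAATTA (4.84% of all windows) and the palindromic EBF motif (0.779%) were in 0 of the 28. Of the printed windows, that of Nr2f2 held 1 TCF and LEF motif and the others held none of these 4 motifs. Not all of the 28 windows lay outside annotated exons. Those of Ebf1, Zic4 and Nr2f1 were exonic throughout. Of the windows with a TCF and LEF motif, those of Foxp1, Meis2 and Bcl11b held 169, 170 and 188 exon bases. That of Zfhx3, also with the motif, lay 772000 bases from the annotated gene start. A match is a run of letters in such a window and no measurement of binding.

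Of the 34 factors, 28 had at least 50 UMIs over the neuronal nuclei, the minimum used for comparing clusters. The 6 under it were Nhlh2, Irx1, Ebf3, Gbx2, Meis1 and Meis2, with 8 to 39 UMIs. Between the highest and the lowest cluster, 18 of the 28 differed by at least 4-fold, against 15.3% of all 11467 genes with as many UMIs. The median difference was 2.82 on the log2 scale for the 28 factors and 0.94 for all these genes. The highest cluster was the same in all 3 libraries for 16 of the 28, against 21.5% of all genes. No test stands behind these counts, since the authors made the clusters from the same nuclei and genes.

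**Figure D1:**
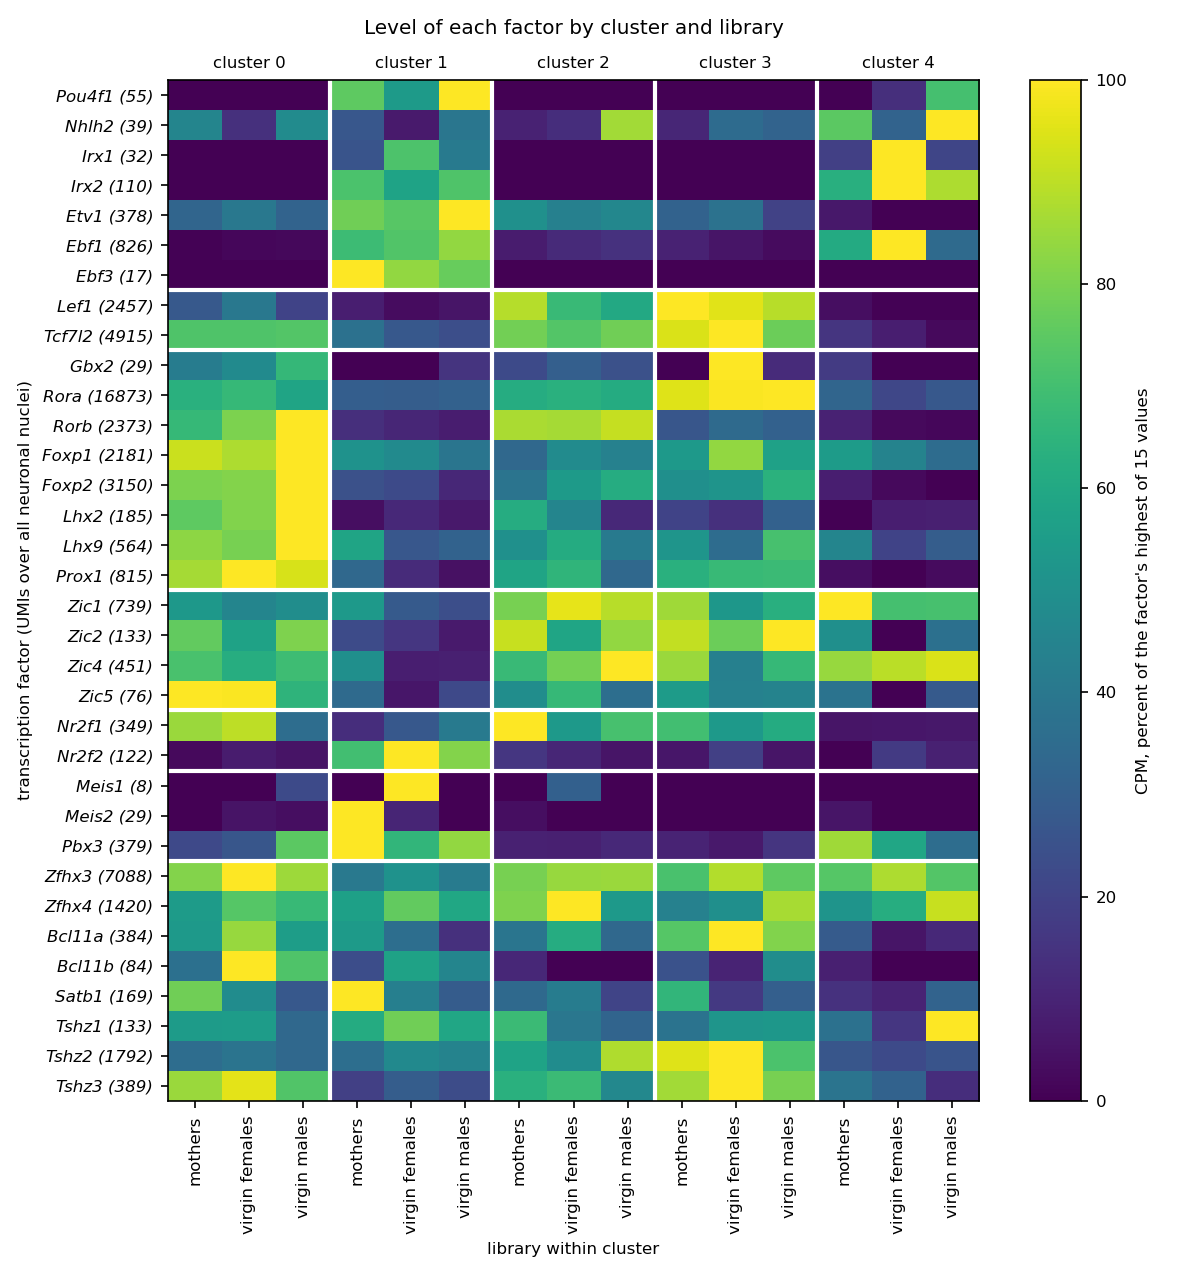
Heat map of the 34 factors (rows, grouped by role, with their UMIs in all neuronal nuclei) over the 15 combinations of cluster and library (columns), coloured by CPM as a percent of the factor's highest value. Irx1 and Irx2 are at 0 in all 9 columns of clusters 0, 2 and 3, where Lef1, Tcf7l2, Rorb and Foxp2 are higher than in every column of clusters 1 and 4.

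Of the 7 habenular factors, Pou4f1, Irx1, Irx2, Ebf1 and Ebf3 had their highest levels in clusters 1 and 4 or in cluster 1, while Etv1 and Nhlh2 had UMIs in all 5 clusters. Pou4f1 was detected in 31 of the 157 nuclei of cluster 1 and 4 of the 75 nuclei of cluster 4, and in none of the 360 nuclei of clusters 0, 2 and 3, which allows a share with a UMI of up to 0.833% and does not limit the share that expresses the gene. Its library levels in cluster 1 were 29.3 CPM (mothers), 21.2 CPM (virgin females) and 39.0 CPM (virgin males). In cluster 4 it was 27.5 CPM in virgin males, 5.24 CPM in virgin females and 0 in mothers, so the libraries were far apart there and only cluster 1 held the factor in all 3. Over clusters 1 and 4 together the level of 21.7 CPM was at least 36.2-fold that in clusters 0, 2 and 3, taking a floor of 3 UMIs for the latter. The clusters were grouped this way on earlier results for Pou4f1, by whether they held it. The Pou4f1 ratio between the groups therefore follows from the grouping. When each nucleus was thinned to 4000 UMIs, 11.7% of cluster 1 and 2.74% of cluster 4 still held a Pou4f1 UMI, so that most nuclei of either cluster carried none at this depth. None of the 11 non-neuronal nuclei (median depth 4780 UMIs) had one, which allows a share with a UMI of up to 27.3%. The 8 markers of the neighbouring medial habenula (MHb), where Pou4f1 is also expressed, summed to 428 CPM in cluster 1, of which Nwd2 gave 387 CPM, and to 59.6 to 88.0 CPM in the others. Calb1 went the other way, at 11.4 CPM in cluster 1 against 28.3 to 83.6 CPM in the others. The markers other than Nwd2 and Calb1 had 5 to 17 UMIs each in cluster 1. The part of these MHb markers in the Pou4f1 level of cluster 1 was not tested.

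Irx2 and its neighbour Irx1, Iroquois homeodomain factors that pattern the diencephalon, were likewise without a UMI in clusters 0, 2 and 3 but, unlike it, had counting intervals that overlapped between clusters 1 and 4. Irx2 was at 45.1, 36.5 and 45.5 CPM in cluster 1 of mothers, virgin females and virgin males, and at 39.6, 62.8 and 55.1 CPM in cluster 4. It was at 0 in all 9 combinations of library with clusters 0, 2 and 3, and the level in clusters 1 and 4 together was at least 72.5-fold higher. It was detected in 31.2% of the nuclei of cluster 1 and 37.3% of those of cluster 4 (14.6% and 19.2% after thinning). The 2 Irx2 UMIs outside neurons were in 2 of the 3 astrocytes. Irx1, with 32 UMIs in all, was at 13.7 CPM in cluster 1 and 10.3 CPM in cluster 4 and had no UMI in the other clusters. Its library values of 4.95 to 26.2 CPM in clusters 1 and 4 were all above the 9 values of 0, but its count was below the minimum and it is not among the factors counted.

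Ebf1, a helix-loop-helix factor that promotes neuronal differentiation, was the most widespread factor of this group in clusters 1 and 4. Its level was 297 CPM in cluster 1 (273 to 334 CPM over libraries) and 256 CPM in cluster 4 (138 to 398 CPM). In clusters 0, 2 and 3 it was 6.01 CPM (3.01 to 7.98 CPM), 41.8 CPM (30.5 to 56.8 CPM) and 24.4 CPM (12.2 to 37.7 CPM). All 6 values in clusters 1 and 4 were above all 9 in the others, and the pooled level was 13.4-fold higher (95% counting interval 10.9 to 16.6). Ebf1 was nevertheless detected in 33.0% of the nuclei of cluster 2 and 26.4% of those of cluster 3, so its presence alone did not mark a cluster. Its relative Ebf3 had 17 UMIs, all in cluster 1, where it was at 11.3, 9.43 and 8.67 CPM in mothers, virgin females and virgin males. Of the 11 nuclei with Ebf3, 10 also held Ebf1.

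Etv1, an ETS factor, differed between clusters 1 and 4. It was at 94.1 CPM in cluster 1 (84.9 to 115 CPM over libraries) and at 3.86 CPM in cluster 4, where 3 UMIs were found, all in mothers. Clusters 0, 2 and 3 lay between, at 40.7 CPM (36.7 to 45.8 CPM), 54.3 CPM (50.2 to 57.8 CPM) and 32.5 CPM (22.7 to 43.2 CPM). Cluster 1 was highest in all 3 libraries. Nhlh2, a helix-loop-helix factor of habenular and other neurons, had 39 UMIs spread over all 5 clusters, from 3.42 CPM in cluster 1 to 11.6 CPM in cluster 4 with overlapping counting intervals.

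Of the 28 factors with enough UMIs, 2 (Irx2 and Ebf1) had all 6 values of clusters 1 and 4 above the 9 of the other clusters, against 3.93% of all genes. The reverse, all 6 below all 9, held for 8 factors: Lef1, Tcf7l2, Rora, Rorb, Foxp2, Lhx2, Zic2 and Tshz3, against 3.85% of all genes. Pou4f1, on which the grouping was made, missed the former count through the mothers of cluster 4, where it had no UMI. Without the library of mothers the counts were 3 and 11, and without that of virgin males they were also 3 and 11. With a library left out fewer values have to be separated, so these counts could only stay or rise. The shares of all genes at these settings were not computed.

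**Figure D2:**
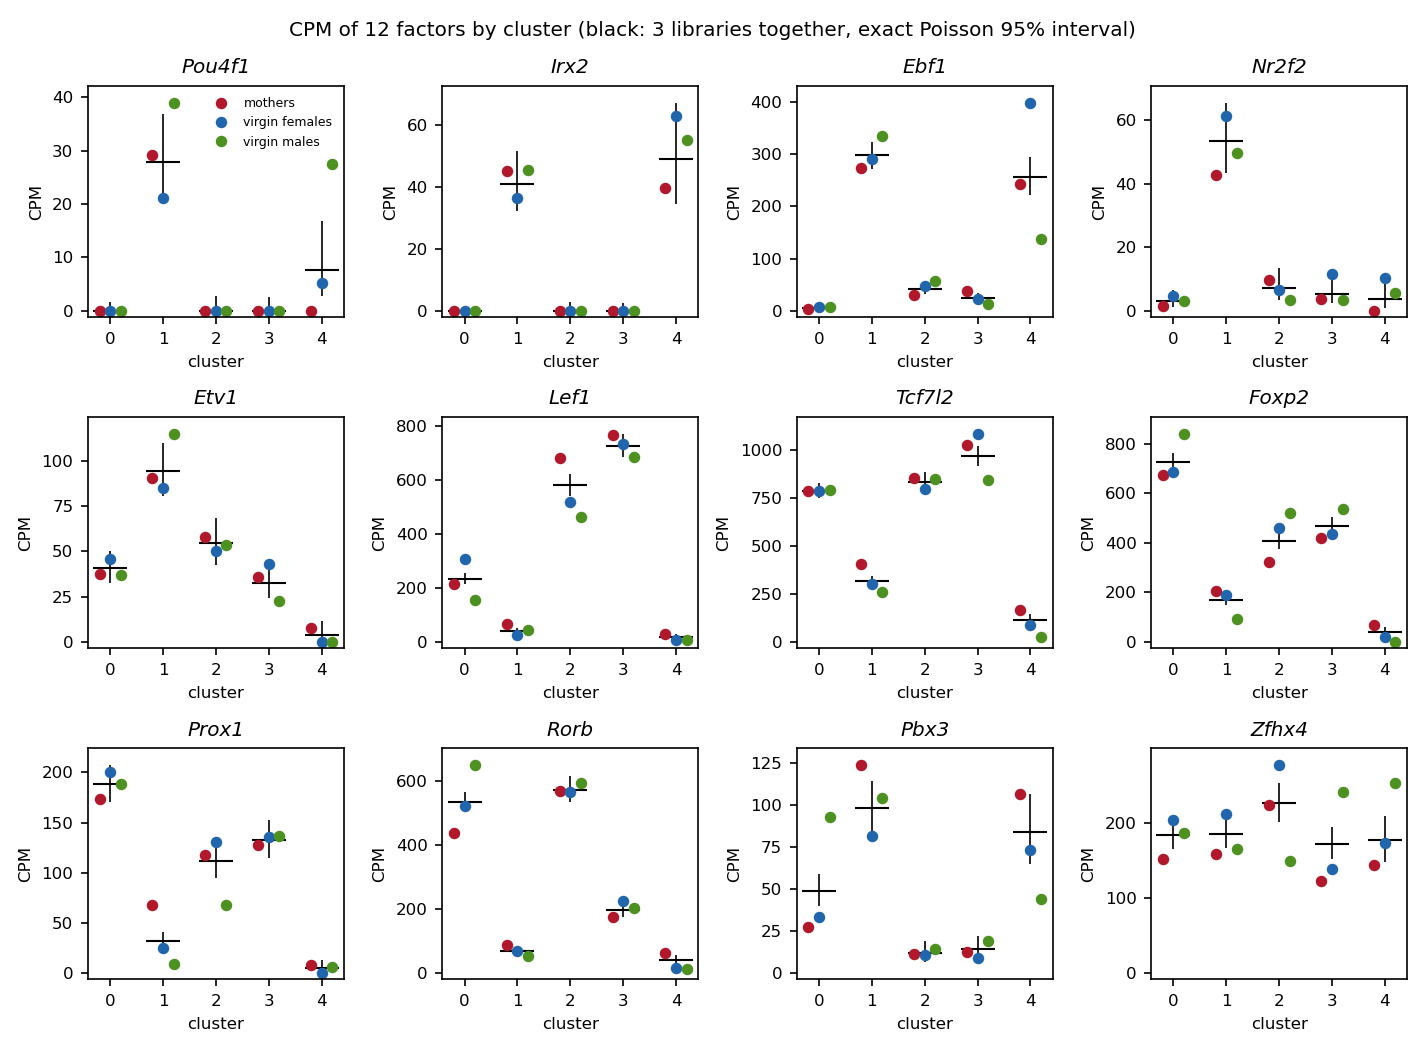
CPM of 12 factors (vertical axes, each from 0) in clusters 0 to 4 (horizontal axes). Coloured points are the libraries of mothers, virgin females and virgin males, and black bars the 3 libraries together with the exact Poisson 95% interval. Pou4f1 and Irx2 are at 0 in clusters 0, 2 and 3, Lef1 and Foxp2 are lowest in clusters 1 and 4, and Zfhx4 lies between 122 and 277 CPM throughout.

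The Wnt effectors had the opposite distribution, and the larger contrast was that of Lef1. Lef1, a partner of beta-catenin that is retained in parts of the adult thalamus, was at 727 CPM in cluster 3 (684 to 767 CPM over libraries), 582 CPM in cluster 2 (462 to 682 CPM) and 234 CPM in cluster 0 (155 to 307 CPM). It was at 40.5 CPM in cluster 1 (25.9 to 65.3 CPM) and 16.7 CPM in cluster 4 (5.24 to 27.2 CPM). Cluster 0 thus stood apart from clusters 2 and 3 in every library, and from clusters 1 and 4 as well. The pooled level in clusters 1 and 4 was 0.070 times that in the others (0.0556 to 0.0870). A Lef1 UMI was present in 94.8% of the nuclei of cluster 2, 95.6% of cluster 3 and 62.2% of cluster 0, in 21.7% of cluster 1 and in 5.33% of cluster 4. None of the 11 non-neuronal nuclei held one.

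Tcf7l2, the Wnt effector that specifies thalamic and habenular neurons, was less uneven. Its level was 788 CPM in cluster 0 (785 to 793 CPM), 834 CPM in cluster 2 (794 to 855 CPM) and 968 CPM in cluster 3 (843 to 1085 CPM), which overlapped between clusters 2 and 3. In cluster 1 it was 316 CPM (260 to 405 CPM), and in cluster 4 it was 116 CPM (27.5 to 168 CPM). All 6 of these library values were below the lowest of the 9 in the other clusters, 785 CPM. After thinning, 59.9% of the nuclei of cluster 1 and 19.2% of cluster 4 held Tcf7l2, against 93.6% to 97.8% in the other clusters. Outside neurons, 7 of 11 nuclei held it, among them all 3 astrocytes.

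Of 20 partners and targets of Wnt signalling listed beside these factors, 15 had at least 50 UMIs. Of these, 5 differed by at least 4-fold between clusters, against 15.3% of all genes. Their median difference was 1.38 on the log2 scale, against 0.94 for all genes. Only Tle4, a co-repressor that binds Lef1 and Tcf7l2, had all 6 values of clusters 1 and 4 above the others. It was 1 of the 15, against 3.93% of all genes. Tle4 was at 184 CPM in cluster 1 and 92.7 CPM in cluster 4 against 22.4 to 38.2 CPM. The receptor gene Lgr5 was at 61.0 CPM in cluster 1 and at 3.86 to 19.6 CPM elsewhere. Ctnnb1, which encodes beta-catenin, was at 65.6 to 121 CPM in all clusters, and Axin2, a feedback target of the pathway, at 28.6 to 64.4 CPM.

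Thalamic regulators were lowest in clusters 1 and 4 other than Foxp1, and cluster 0 was highest in every library for 5 of the 8 (Foxp1, Foxp2, Lhx2, Lhx9 and Prox1). Foxp2, a forkhead factor of thalamic and corticothalamic neurons, was at 727 CPM in cluster 0 (675 to 841 CPM), 409 CPM in cluster 2 (323 to 522 CPM) and 468 CPM in cluster 3 (419 to 537 CPM). In cluster 1 it was at 169 CPM (93.2 to 207 CPM) and in cluster 4 at 41.2 CPM (0 to 69.3 CPM). It was present in 89.7% to 97.8% of the nuclei of clusters 0, 2 and 3 but in 18.5% of cluster 1 and 8.0% of cluster 4, and in 5 of the 11 non-neuronal nuclei, 4 of them ependymal. In cluster 1 the level came from few nuclei: 18 nuclei with at least 7 Foxp2 UMIs, a limit set after the values were seen, carried 94.9% of the cluster's Foxp2 UMIs.

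Prox1, a homeodomain factor related to Drosophila prospero, was at 189 CPM in cluster 0 (173 to 200 CPM), 112 CPM in cluster 2 (67.5 to 131 CPM) and 133 CPM in cluster 3 (128 to 136 CPM). Cluster 4 was at 5.15 CPM (0 to 7.43 CPM). In cluster 1 the libraries ran from 8.67 CPM in virgin males to 67.6 CPM in mothers around 31.4 CPM, and the mothers' value met the lowest of the other clusters. Lhx2, a LIM homeodomain factor of thalamic progenitors and caudal thalamus, was at 52.7 CPM in cluster 0 (46.7 to 62.3 CPM) and 28.6 CPM in cluster 2 (7.10 to 38.5 CPM). It was at 14.2 CPM in cluster 3 (8.63 to 19.2 CPM), 5.13 CPM in cluster 1 (2.25 to 7.07 CPM) and 2.58 CPM in cluster 4, where 2 UMIs were found. The gap between its 6 low and 9 higher values was 7.07 against 7.10 CPM, less than the worth of 1 UMI in any of these sums. Its relative Lhx9 differed by 2.44-fold in all, from 46.4 CPM in cluster 4 to 113 CPM in cluster 0.

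The ROR nuclear receptors differed in shape. Rorb was at 572 CPM in cluster 2 (563 to 593 CPM) and 532 CPM in cluster 0 (435 to 650 CPM), and lower in cluster 3, at 197 CPM (174 to 224 CPM). It was at 69.6 CPM in cluster 1 (52.0 to 87.8 CPM) and 38.6 CPM in cluster 4 (11.0 to 61.9 CPM). Rora was highest in cluster 3 in every library, at 3739 CPM (3627 to 3818 CPM), with 2425 and 2381 CPM in clusters 0 and 2 and 1147 and 1096 CPM in clusters 1 and 4. Rora was detected in all nuclei of clusters 0, 2 and 3, in 91.7% of cluster 1 and 97.3% of cluster 4 (90.5% and 91.8% after thinning), and in 10 of the 11 non-neuronal nuclei. Foxp1, the partner of Foxp2, was highest in cluster 0 in every library, at 434 CPM, and at 190 to 291 CPM elsewhere. Gbx2, which specifies thalamic neurons in the embryo and marks adult midline thalamus, had 29 UMIs. There were 16 in cluster 0 (7.39 CPM), 5 and 6 in clusters 2 and 3 (3.67 and 4.07 CPM) and 1 in each of clusters 1 and 4. Its library values were 6.03 to 9.58 CPM in cluster 0, 3.21 to 4.36 CPM in cluster 2 and 0 to 14.4 CPM in cluster 3.

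Effector genes of the thalamus were divided. Of 12 listed, 9 differed by at least 4-fold between clusters (15.3% of all genes did) and 6 had all values of clusters 1 and 4 below the others (3.85% of all genes): Ntng1, Plekhg1, Kcnc2, Grid2ip, Synpo2 and Vav3. Ntng1, a membrane-bound guidance molecule of thalamic axons, was at 4196 to 4909 CPM in clusters 0, 2 and 3, at 830 CPM in cluster 1 and at 314 CPM in cluster 4. The other 6 overlapped, among them the cadherin gene Cdh8, which was highest in cluster 1 at 861 CPM. Of 12 listed habenular effectors, 8 had enough UMIs, and 4 of these differed by at least 4-fold (15.3% of all genes did). In clusters 1 and 4, 2 (Pcdh10 and Nwd2) were above (3.93% of all genes) and 1 (Cck) was below (3.85%). Pcdh10 is also among the LHb markers above, and Nwd2 among the MHb markers. Slc17a6, which loads glutamate into vesicles in both regions, was at 252 to 429 CPM in all clusters. Gad2, an enzyme of GABA synthesis, was at 36.5 CPM in cluster 1 and 59.2 CPM in cluster 4 and at 0 to 1.85 CPM in the others, and the 4 GABAergic markers summed to 74.1 and 126 CPM in clusters 1 and 4 against 0 to 8.32 CPM. Their part in the low thalamic factors of clusters 1 and 4 was not tested.

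Of the other regulators of the diencephalon, 20 were listed and 9 had no UMI in neuronal nuclei. Only Nr4a2 and Lmo3 reached 50 UMIs. Nr4a2, an orphan nuclear receptor found in the habenula, was at 91.8 CPM in cluster 1, 15.5 CPM in cluster 4 and 2.71 to 6.60 CPM in the others. Lmo3, a LIM-only cofactor, was at 44.5 CPM in cluster 1 and 51.5 CPM in cluster 4, and at 0 to 1.85 CPM in the others. Lmo3 had all 6 library values of clusters 1 and 4 above the 9 others, as Irx2 and Ebf1 had, and Nr4a2 had not.

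Zic factors, zinc finger proteins of the dorsal neural tube and medial thalamus, were divided among themselves: Zic2 and Zic5 were lowest in clusters 1 and 4, whereas Zic1 and Zic4 were lowest in cluster 1 and not low in cluster 4. Zic2 was at 20.8 CPM in cluster 0 (17.2 to 23.9 CPM), 23.5 CPM in cluster 2 (17.5 to 27.3 CPM) and 27.1 CPM in cluster 3 (23.0 to 29.7 CPM), above 4.56 CPM in cluster 1 (2.17 to 6.76 CPM) and 10.3 CPM in cluster 4 (0 to 14.9 CPM). Zic4, in contrast, was highest in cluster 4, at 87.6 CPM (84.2 to 93.6 CPM), and lowest in cluster 1, at 18.8 CPM (8.25 to 49.6 CPM). Clusters 0, 2 and 3 were at 66.6 CPM (61.8 to 70.8 CPM), 77.8 CPM (67.4 to 99.5 CPM) and 67.8 CPM (43.2 to 84.4 CPM), so the libraries of clusters 2 and 3 overlapped with those of cluster 4. Clusters 1 and 4, whose counting intervals overlapped for Irx2 and Ebf1, therefore differed in Zic4, and the library ranges of the pair did not overlap. Lef1 was low in both but higher in cluster 1 than in cluster 4 in every library.

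Zic1 showed the same tendency, with 140 CPM in cluster 4 (115 to 163 CPM) and 54.7 CPM in cluster 1 (39.0 to 87.8 CPM), against 80.0 to 142 CPM in the others. The genes of Zic1 and Zic4 overlap on opposite strands of chromosome 9, and the sources used here do not state whether reads were counted by strand, so their UMIs cannot be told apart with certainty. Zic4 was detected in 178 of the 328 nuclei with Zic1, and all 5 ependymal nuclei held Zic4. Zic5 was highest in cluster 0 in every library, at 17.6 CPM (12.8 to 19.6 CPM), with 10.3 CPM in cluster 2 (7.10 to 13.1 CPM), 9.48 CPM in cluster 3 (8.63 to 10.8 CPM), 3.42 CPM in cluster 1 (1.18 to 6.76 CPM) and 5.15 CPM in cluster 4 (0 to 7.43 CPM).

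The COUP nuclear receptors Nr2f1 and Nr2f2 are close paralogues that set regional identity across the forebrain. With the libraries pooled, Nr2f1 was lower and Nr2f2 higher in cluster 1 than in clusters 0, 2 and 3, and both were low in cluster 4. The library ranges of Nr2f1 overlapped between clusters 0 and 1. Nr2f1 was at 61.9 CPM in cluster 0 (30.3 to 76.7 CPM), 66.8 CPM in cluster 2 (45.8 to 85.1 CPM) and 53.5 CPM in cluster 3 (46.0 to 59.3 CPM). It was at 23.4 CPM in cluster 1 (11.3 to 34.7 CPM) and 5.15 CPM in cluster 4 (4.95 to 5.51 CPM). Nr2f2 was at 53.6 CPM in cluster 1 (42.8 to 61.3 CPM), and at 3.24 CPM (1.51 to 4.58 CPM), 7.34 CPM (3.55 to 9.63 CPM), 5.42 CPM (3.50 to 11.5 CPM) and 3.86 CPM (0 to 10.5 CPM) in clusters 0, 2, 3 and 4. Nr2f2 thus stood with Etv1 as a factor that set cluster 1 apart from cluster 4 in every library. Within cluster 1, 12 of the 33 nuclei with Nr2f1 (36.4%) also held Nr2f2, against 31.5% of those without, with median depths of 12962 and 8658.5 UMIs. Detection of one was thus no lower where the other was detected.

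Of the TALE homeodomain factors, which act as partners of other homeodomain proteins, Pbx3 had enough UMIs. It was at 98.1 CPM in cluster 1 (81.3 to 124 CPM) and 83.7 CPM in cluster 4 (44.1 to 106 CPM), and at 11.7 CPM in cluster 2 (10.9 to 14.2 CPM) and 14.2 CPM in cluster 3 (8.63 to 19.2 CPM). Cluster 0 was split by library, at 92.6 CPM in virgin males against 33.2 CPM in virgin females and 27.1 CPM in mothers, and 1 nucleus of virgin males held 23 UMIs there. Of the 29 Meis2 UMIs, 24 were in cluster 1, and 1 nucleus of the mothers held 19 of them, so no level is drawn from it. Meis1 had 8 UMIs in 5 nuclei.

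Zinc finger and AT-binding regulators were the most even group of these factors, with 2 of 8 differing by at least 4-fold, against 15.3% of all genes. Bcl11a, which directs projection neuron identity, was at 78.6 CPM in cluster 3 (70.1 to 94.9 CPM), 63.3 CPM in cluster 0 (51.2 to 80.1 CPM) and 43.3 CPM in cluster 2 (32.0 to 58.9 CPM). It was at 33.1 CPM in cluster 1 (13.0 to 51.8 CPM) and 18.0 CPM in cluster 4 (5.24 to 27.2 CPM). Its paralogue Bcl11b was at 20.8 CPM in cluster 0 (10.5 to 28.6 CPM), 13.1 CPM in cluster 1 (6.76 to 16.5 CPM) and 8.81 CPM in cluster 3 (2.88 to 14.0 CPM), with 2 UMIs in cluster 2 and 1 in cluster 4. Tshz3, a teashirt zinc finger factor, was lower in clusters 1 and 4, at 21.1 and 25.8 CPM against 51.4 to 72.5 CPM. Its relative Tshz2 ran from 118 CPM in cluster 4 to 404 CPM in cluster 3. Tshz1 ran from 15.5 to 22.8 CPM, Satb1 from 9.01 to 27.9 CPM, Zfhx4 from 172 to 226 CPM and Zfhx3 from 579 CPM in cluster 1 to 1140 CPM in cluster 0.

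The authors' metadata also gave each neuronal nucleus an LHb subtype label. Of the 592, 298 were labelled LHb1, 216 LHb2 and 78 LHb4, with median depths of 13041.5, 10357.5 and 7437.5 UMIs. Of the LHb1 nuclei, 147, 74 and 76 were in clusters 0, 2 and 3, and of the LHb4 nuclei 71 were in cluster 1. LHb2 was divided, with 86 nuclei in cluster 1, 71 in cluster 4, and 22, 22 and 15 in clusters 0, 2 and 3.

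No nucleus labelled LHb1 held a UMI of Pou4f1, Irx1, Irx2 or Ebf3, which allows a share with a UMI of up to 1.01% for each, although these nuclei were the deepest. Pou4f1 was at 4.40 CPM in LHb2 and 61.7 CPM in LHb4, and Irx2 at 30.8 and 46.3 CPM. Ebf1 was at 24.3 CPM in LHb1, 154 CPM in LHb2 and 473 CPM in LHb4. The thalamic factors ran the other way: Lef1 was at 473, 149 and 54.7 CPM in LHb1, LHb2 and LHb4, Foxp2 at 576, 251 and 47.7 CPM, and Prox1 at 153, 58.0 and 9.82 CPM. Lef1 was detected in 243 of the 298 LHb1 nuclei, Foxp2 in 285 and Tcf7l2 in 296. The subtype labels and the clusters rest on the same counts, so this is a description of what the labels hold.

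Within cluster 1 the labels divided the habenular factors further. Pou4f1 was at 58.9 CPM in the 71 LHb4 nuclei and 8.38 CPM in the 86 LHb2 nuclei, with counting intervals of 42.0 to 80.1 CPM and 3.83 to 15.9 CPM, although the LHb4 nuclei were shallower (median 8006 against 10880.5 UMIs). Ebf1 was at 481 CPM in LHb4 and 181 CPM in LHb2. Foxp2 was at 42.7 CPM in LHb4 and 249 CPM in LHb2, and Prox1 at 5.88 and 47.5 CPM. Irx2 (47.1 and 37.2 CPM), Nr2f2 (54.4 and 53.1 CPM) and Lef1 (44.1 and 38.2 CPM) had overlapping counting intervals between the labels. Habenular and thalamic factors thus did not all follow the label within the cluster.

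The 18 nuclei of cluster 1 rich in Foxp2 came from all 3 libraries (5 of mothers, 9 of virgin females and 4 of virgin males), and 16 were labelled LHb2. They held no Pou4f1 UMI, and 1 held Irx2, against 31 and 48 of the other 139 nuclei of the cluster. Ebf1 was in 10 of the 18 (55.6%) and in 88 of the other 139 (63.3%). Prox1 was at 147 against 13.8 CPM, Bcl11a at 173 against 11.8 CPM and Nr2f1 at 64.9 against 17.1 CPM, while Nr2f2 was at 8.65 against 60.4 CPM. Rorb was at 13.0 CPM against 78.2 CPM, so not all thalamic factors were higher with Foxp2. Their median depth was 13852 UMIs against 9611 UMIs in the others, and the part of depth in these shares was not tested.

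Co-detection in single nuclei was read beside depth, since a nucleus with more UMIs is more likely to show any pair. Of the 35 nuclei with Pou4f1, 7 held Lef1 (20%, exact 95% interval 8.44% to 36.9%), against 56.9% of the nuclei without Pou4f1. Within cluster 1 the shares were 6 of 31 nuclei with Pou4f1 (19.4%) and 22.2% of those without, at median depths of 13005 and 8801.5 UMIs. The low share over all nuclei was thus not repeated within the cluster, where Lef1 was rare with and without Pou4f1. After thinning, 2 of 18 nuclei with Pou4f1 held Lef1.

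Shares of cluster 1 nuclei with a UMI of other factors were also set side by side with and without Pou4f1. Among habenular factors, Irx2 was in 12 of the 31 nuclei with Pou4f1 (38.7%) and in 29.4% of those without, Ebf1 in 64.5% and 61.9%, Etv1 in 48.4% and 38.1%, Irx1 in 19.4% and 13.5%, and Ebf3 and Nhlh2 in 9.68% against 6.35% and 2.38%. Among the COUP and TALE factors, Nr2f2 was in 41.9% and 30.2% and Pbx3 in 58.1% and 40.5%. Foxp2 was in 9.68% and 20.6%, Prox1 in 6.45% and 15.9%, and Bcl11a in 3.23% and 17.5%, lower beside Pou4f1 despite the greater depth. With 31 nuclei, the exact intervals of the shares with Pou4f1 covered the share without it for all factors other than Bcl11a. Tcf7l2 was in 87.1% and 77.0%. It was also in 7 of the 11 non-neuronal nuclei, among them all 3 astrocytes. Whether a UMI of this abundant factor beside Pou4f1 reflects expression of both was not tested.

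**Figure D3:**
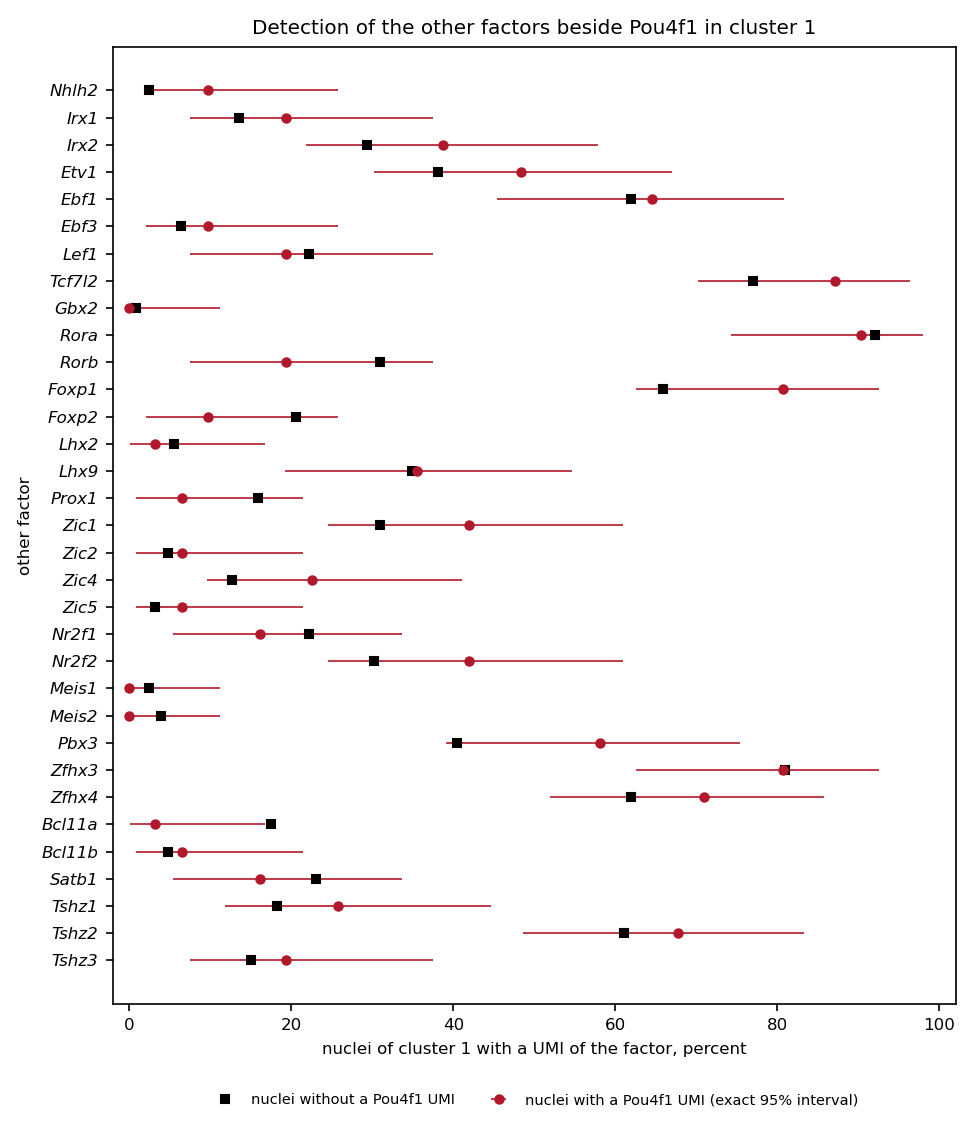
Share of nuclei of cluster 1 (horizontal axis, percent) with a UMI of each of the other 33 factors (vertical axis), in the 31 nuclei with a Pou4f1 UMI (red, exact 95% interval) and the 126 without (black). The red points for Foxp2, Prox1 and Bcl11a lie left of the black ones and those for Irx2, Nr2f2 and Pbx3 right of them, with wide intervals.

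Few nuclei held both Irx2 and Foxp2. Of the 77 nuclei with Irx2, 6 held Foxp2 (7.79%), against 70.7% of the nuclei without Irx2. Irx2 had no UMI in clusters 0, 2 and 3, where 89.7% to 97.8% of nuclei held Foxp2. The contrast over all nuclei thus largely restates the clusters. Within cluster 1 the shares were 8.16% and 23.1%, and the cluster includes the 18 nuclei rich in Foxp2, of which 1 held Irx2. Within cluster 4 the shares were 7.14% and 8.51%, so the contrast was not repeated there. The nuclei holding Irx2 were the deeper in both clusters (12029 against 8661 UMIs, and 10652 against 8558 UMIs). Irx2 and Ebf1 met in 58 of the 77 nuclei, with 79.6% against 54.6% in cluster 1 and 67.9% against 66.0% in cluster 4. Irx1 was found with Irx2 in 17 of its 30 nuclei. Lef1 and Tcf7l2 met in 318 of the 324 nuclei with Lef1. In clusters 2 and 3 every nucleus with Ebf1, 32 and 24 in number, also held Lef1, where 94.8% and 95.6% of all nuclei did.

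For a view over factors, UMIs of 4 habenular factors (Pou4f1, Irx1, Irx2 and Ebf1) and 4 thalamic factors (Lef1, Foxp2, Prox1 and Rorb), sets chosen after their values were seen, were summed per nucleus. UMIs of the thalamic set without any of the habenular set were found in 156 of 172 nuclei of cluster 0, 64 of 97 of cluster 2 and 67 of 91 of cluster 3, and in 24 of cluster 1 and 3 of cluster 4. UMIs of the habenular set alone were found in 53 of 157 nuclei of cluster 1 and 46 of 75 of cluster 4, and in 0 nuclei of the others. The genes differ in length, from 5.38 kb for Irx2 to 541 kb for Foxp2, so the numbers of UMIs of the sets are not compared within a nucleus. In cluster 1, 64 nuclei (40.8%) held UMIs of both sets, against 6.40%, 33.0%, 26.4% and 17.3% of clusters 0, 2, 3 and 4. In clusters 0, 2 and 3 the habenular set was Ebf1 alone, since Pou4f1, Irx1 and Irx2 had no UMI there. With at least 2 UMIs of each set required, the shares were 22.9% in cluster 1 and 1.16% to 13.4% in the others, and after thinning 11.7% and 0 to 4.26%. The nuclei of cluster 1 with both sets were the deeper ones, at a median of 12484.5 UMIs against 8314 UMIs. The sources used here do not state how doublets were treated, and their part in these shares was not tested.

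**Figure D4:**
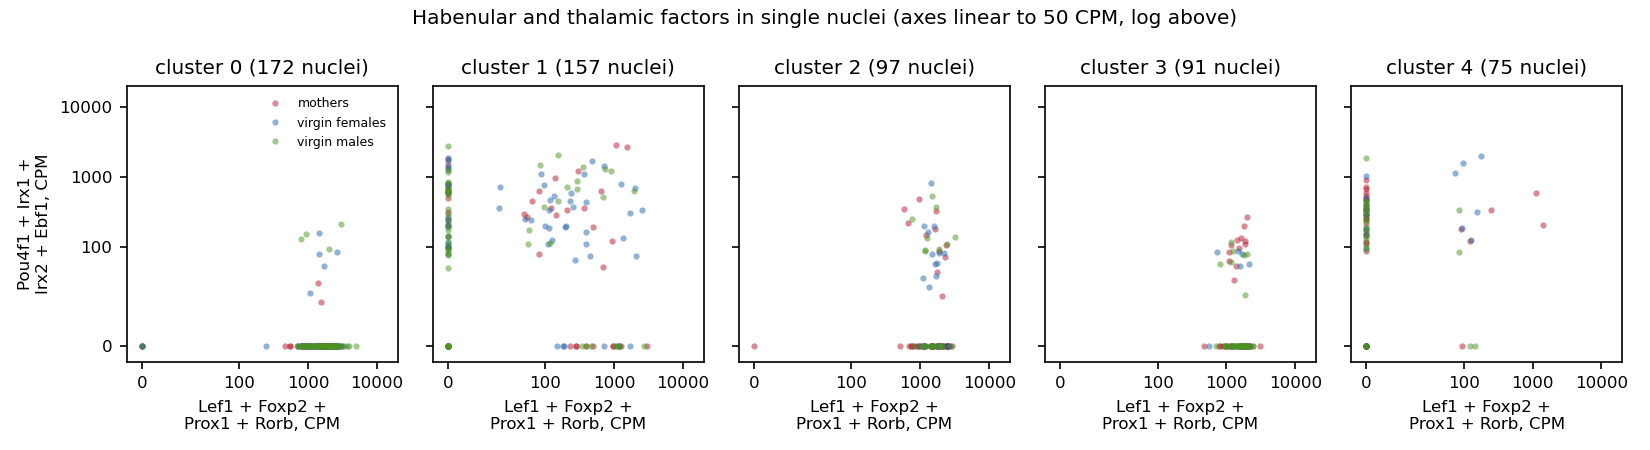
Each point is a neuronal nucleus, with the summed CPM of Lef1, Foxp2, Prox1 and Rorb on the horizontal axis and of Pou4f1, Irx1, Irx2 and Ebf1 on the vertical axis (both linear to 50 CPM and logarithmic above), by cluster and coloured by library. Nuclei of clusters 0, 2 and 3 lie on the right, mostly at 0 on the vertical axis, those of cluster 4 mostly at 0 on the horizontal axis, and those of cluster 1 along both axes and between them.

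Between libraries the median difference of the factors was close to 0: -0.07, -0.04 and -0.09 on the log2 scale for mothers over virgin females, mothers over virgin males and virgin males over virgin females, against 0.00, 0.02 and -0.02 for all genes. For mothers over virgin females, 10 of the 33 factors with at least 10 UMIs in the pair differed by at least 1.5-fold in either direction, against 18.1% of all genes. For mothers over virgin males the count was 7 of 32, against 18.1% of all genes, and for virgin males over virgin females it was 6 of 32, against 18.2%. When 50 UMIs in the pair were required, the counts were 5 of 27 factors against 7.49% of all genes, 1 of 25 against 7.27% and 2 of 26 against 7.56%. The pairs share libraries and are not independent of each other. A library also sums its own mix of clusters: cluster 1 made up 39 of 201 neuronal nuclei of mothers, 65 of 187 of virgin females and 53 of 204 of virgin males.

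Nr2f2 was at 10.4 CPM in mothers, 13.7 CPM in virgin males and 23.9 CPM in virgin females, 0.435 times as high in mothers as in virgin females (95% counting interval 0.269 to 0.687) and 0.571 times as high in virgin males (0.355 to 0.898). With the same mix of clusters in each library the ratios were 0.639 and 0.717. Pou4f1 was at 4.83 CPM in mothers, 6.99 CPM in virgin females and 10.8 CPM in virgin males, with mothers at 0.446 times the level of virgin males (0.207 to 0.918, and 0.572 with the same mix) and virgin males at 1.55 times that of virgin females (0.807 to 3.01, and 2.17 with the same mix). For mothers over virgin females the ratio of 0.691 (0.314 to 1.48) turned to 1.24 with the same mix. These levels rest on 13, 19 and 23 UMIs. Irx1 was at 7.73 CPM in virgin females (21 UMIs), 1.86 CPM in mothers (5 UMIs) and 2.83 CPM in virgin males (6 UMIs), lower in both of the latter also with the same mix (0.294 and 0.436 times the level of virgin females).

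Satb1, an organiser of chromatin, was at 30.8 CPM in mothers, 20.2 CPM in virgin females and 14.6 CPM in virgin males. Mothers were 2.11-fold above virgin males (1.38 to 3.30), also with the same mix of clusters (2.39-fold), and higher in 4 of 5 clusters. Against virgin females the ratio was 1.52 (1.07 to 2.18), and the direction turned when nuclei were thinned to equal depth. Bcl11b was at 6.32 CPM in mothers against 14.7 CPM in virgin females (0.429 times, 0.228 to 0.774) and 12.7 CPM in virgin males (0.497 times, 0.254 to 0.945). With the same mix the ratios were 0.542 and 0.584, but mothers were above virgin females in 3 of the 5 clusters and above virgin males in 2. Zic2 was at 20.8 CPM in mothers, 19.8 CPM in virgin males and 12.9 CPM in virgin females, with mothers 1.62-fold (1.04 to 2.54) and virgin males 1.54-fold (0.958 to 2.48) above virgin females, and both were under 1.5-fold with the same mix of clusters (1.45 and 1.38). Zic4 was at 71.3 CPM in mothers against 47.5 CPM in virgin females, just past 1.5-fold (1.20 to 1.89) and at 1.34-fold with the same mix.

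The other factors past 1.5-fold rested on few UMIs or on 1 nucleus. Nhlh2 was at 8.48 CPM in virgin males (18 UMIs), 5.20 CPM in mothers (14 UMIs) and 2.58 CPM in virgin females (7 UMIs). In the order mothers, virgin females, virgin males, Gbx2 had 7, 13 and 9 UMIs and Ebf3 had 5, 8 and 4. Meis2 had 22, 6 and 1, so that mothers stood at 3.70 times virgin females (1.46 to 11.2) and 17.4 times virgin males (2.80 to 716), and without the richest nucleus of each library the former was 0.757. Of the factors far apart between clusters, Lef1, Tcf7l2, Foxp2, Irx2 and Ebf1 were under 1.5-fold apart in all 3 pairs, though not even. Lef1 in mothers was 1.33 times as high as in virgin females (1.21 to 1.46, and 1.06 with the same mix) and 1.28 times as high as in virgin males (1.16 to 1.41, and 1.30). Ebf1 in mothers was 0.736 times as high as in virgin females (0.625 to 0.866, and 0.826). By library, Lef1 was at 384, 288 and 301 CPM in mothers, virgin females and virgin males, Tcf7l2 at 695, 625 and 633 CPM, Foxp2 at 372, 413 and 482 CPM, Irx2 at 13.4, 15.8 and 14.6 CPM, and Ebf1 at 97.0, 132 and 97.5 CPM.

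**Figure D5:**
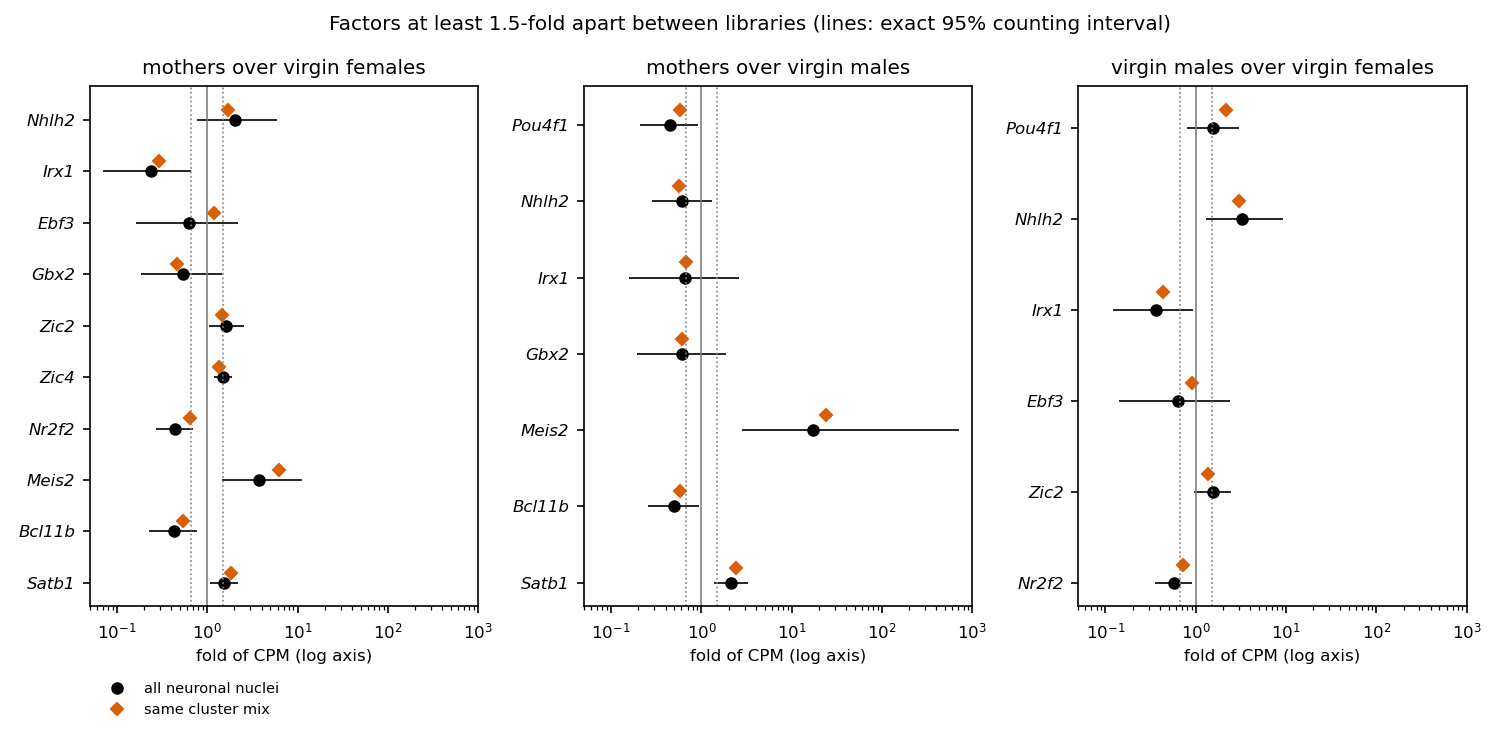
Ratios of CPM (logarithmic horizontal axes) for the factors at least 1.5-fold apart in each pair of libraries, over all neuronal nuclei (black, with exact 95% counting interval) and with the same mix of clusters in each library (orange). Dotted lines mark 1.5-fold either way, and most intervals cover several-fold, as for Meis2 with 1 UMI in virgin males.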

How the data were processed

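The authors deposited raw counts of UMIs per gene and nucleus for the 3 libraries, and a table with each nucleus's total counts, mitochondrial percent, cluster, class and LHb label, per the file headers. The submitters' processing notes name Cell Ranger 5.0.1 and GRCm38 (mm10). The sources used here do not give the annotation, the counting of introns and strand, the filters on nuclei or the handling of doublets, and no doublet caller was run. Nuclei were joined between the files by total UMIs and genes with a UMI, a pair unique to each of the 603 nuclei, and the recomputed mitochondrial percent differed by at most 0 from the deposited percent. The libraries shared 0 barcodes.

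UMIs were summed per cluster, label and library and given as CPM with exact Poisson 95% intervals, and shares with exact binomial (Clopper-Pearson) intervals. PCR duplicates are removed by UMIs, and intervals and floors (3 UMIs) cover counting error only. Neuronal totals of 2122919 to 2718356 UMIs per library make 3 UMIs worth 1.10 to 1.41 CPM. For shares, nuclei were also thinned to 4000 UMIs, which left out 33 and kept 559. With 1 library per group, and clusters made from the same genes, no test was run. For a ratio with the same mix of clusters, each library's cluster levels were weighted by that cluster's share of the UMIs of all neuronal nuclei. Python 3.11.15, pandas 2.3.3, NumPy 2.4.6, SciPy 1.17.1 and matplotlib 3.10.9 were used, with edgeR 4.0.16 in R 4.3.3 for TMM factors in an alternative. The code was tested on simulated data.

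All 34 factors are accounted for. Those at least 4-fold apart between clusters, with Tcf7l2, Gbx2 and Nr2f2, have their value or UMIs in every cluster. The range over libraries is given with them, other than in some clusters with few UMIs. Those at least 1.5-fold apart between libraries are named, and other genes come from written lists. The factors and lists were chosen with earlier results of these data known. The alternatives covered the minimum UMIs, the fold, thinning, the mix of clusters, TMM scaling, means over nuclei, the deepest nuclei and each library left out.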

Additional observations from a re-analysis of the deposited data

Results flagged for a closer look

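Some factors had UMIs in the 11 nuclei that the authors annotated as other than neurons (3 astrocytes, 5 ependymal cells, 2 oligodendrocytes and 1 polydendrocyte), which entered no comparison, in number above the 3 that a count of 0 allows. Among thalamic and Wnt factors these were Rora with 157 UMIs, Foxp1 with 23, Foxp2 with 21, Tcf7l2 with 13 and Rorb with 12. Among the others they were Zfhx4 with 23 UMIs, Zfhx3 and Zic4 with 16 each, Satb1 with 9, Pbx3 with 6, Zic1 with 5 and Nr2f1 with 4. Rorb UMIs were all in the 3 astrocytes, and Zic4 UMIs all in the 5 ependymal nuclei.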

How the results depend on the processing

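No paired analysis was possible because each group has 1 library. The counts of factors and the share of Pou4f1 nuclei with Lef1 gave 8 results under 65 alternatives, of which 61 stayed near the reported value, 4 moved and 0 reversed. With 50 UMIs required in the pair, the factors past 1.5-fold numbered 5 for mothers over virgin females, 1 for mothers over virgin males and 2 for virgin males over virgin females, and with means over nuclei the last was 3. Leaving out each library gave 15 to 19 factors past 4-fold between clusters, 18 to 20 with the same highest cluster, 2 to 3 above and 8 to 11 below in clusters 1 and 4, and Lef1 in 17.4% to 23.8% of Pou4f1 nuclei. With fewer libraries to agree, the counts for the same highest cluster and for above or below could only stay or rise.

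Of 236 alternatives for the difference of single factors between clusters, 206 stayed, 30 moved and 0 reversed. Only factors at least 1.5-fold apart could be counted as reversed. Of 218 alternatives for differences between libraries, 194 stayed, 10 moved and 14 reversed. Leaving out choroid-rich nuclei or the richest nucleus of each library, and taking clusters 1 at a time, were chosen after seeing the data. On the log2 scale, thinning turned Satb1 in mothers over virgin females to -0.17, and Nhlh2 to 0.31 in mothers over virgin males and to -0.078 in virgin males over virgin females. Without the richest nuclei Meis2 was -0.40 in mothers over virgin females and -0.34 over virgin males. With the same mix of clusters, and in cluster 1 alone, Ebf3 in mothers over virgin females was 0.26. In cluster 2 alone that comparison gave -0.22 for Zic4, 0.56 for Nr2f2 and -0.31 for Satb1, and in cluster 4 alone -0.34 for Nhlh2, -0.081 for Zic2 and -0.081 for Zic4. Nr2f2 in virgin males over virgin females was 0.064 in cluster 0 alone. The cause of these changes was not tested. Depth limits Pou4f1, Irx1, Ebf3, Gbx2, Nhlh2, Meis1 and Meis2 most.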

Other observations

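The authors' metadata placed 4 nuclei of cluster 1 under an MHb label, at a median depth of 5908.5 UMIs. Pou4f1 had 5 UMIs in 3 of them, Ebf1 17 UMIs in all 4, Lef1 8 UMIs in 3 and Irx2 2 UMIs in 2. Rora had 4 UMIs in 1 of the nuclei, and Zfhx3 had none.

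The 5 choroid-rich nuclei of virgin males held 721 Ttr UMIs (Ttr encodes transthyretin, the main secreted protein of the choroid plexus). Among the factors they held 27 UMIs of Rora, 13 of Lef1, 12 of Zfhx4, 9 of Foxp1 and 8 of Tcf7l2. The other 152 nuclei of cluster 1 held 58 Lef1 UMIs.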
